A study of Mus musculus with 80 samples.

Results

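Lungs of CYP2F2 knockout mice (KO) that had breathed styrene were compared with lungs of KO mice that had breathed air. The arrays were taken from the deposited log2 table by their titles: 15 exposed KO arrays pooled over 3 doses, and 5 air KO arrays. These 20 arrays are part of a series of 80. The series measured gene expression in whole lungs of adult male mice of 4 strains, C57Bl/6 KO, C57Bl/6 wild type (WT), C57Bl/6 humanized for CYP2F1 (TG) and CD-1. The question was what styrene does to the lung when CYP2F2 is missing, and how small a change the arrays leave room for. In each KO group (10 ppm, 40 ppm, 120 ppm or air at 0 ppm) there were 5 arrays, which the titles call biological replicates. WT lungs had the same doses and numbers and serve as the comparison strain. Each mouse was exposed once, for 6 h, and its lungs were taken the next morning. The labels used here do not say which part of the gene was deleted, nor in which cells, and name no other allele. A whole lung mixes many cell types, so fewer cells of a type and less RNA per cell cannot be told apart.

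Styrene is an industrial solvent that becomes toxic to the mouse airway mainly after oxidation. CYP2F2 is a cytochrome P450 that is abundant in club cells, the secretory cells of the mouse airway lining. It oxidizes styrene on the aromatic ring and on the side chain, and the products can bind proteins and use up glutathione. Glutathione loss activates oxidative defence genes through NRF2, and injured tissue can induce chemokines, interferon-stimulated genes and genes of cell division.

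The targeted gene was examined first. The Cyp2f2 probe set (chromosome 7) gave a log2 signal of 11.51 at the lowest, 11.62 at the median and 11.89 at the highest among the 15 exposed KO arrays. The 5 air KO arrays gave 11.66, 11.59, 11.57, 11.81 and 11.76. The exposed and air arrays overlapped, and the difference was -0.03 ± 0.06 (styrene minus air, SE). All 20 KO arrays lay below all 20 WT arrays, which ran from 12.04 to 12.87 after styrene and from 13.19 to 13.27 in air. The KO signal was still bright, and the labels do not place this probe set inside or outside the deletion. Array medians averaged 4.16 in KO and 4.57 in WT, and nothing used here says whether the strains were normalized together.

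The KO arrays were alike. Over all probe sets, the correlation between any 2 of them lay between 0.992 and 0.996 (190 pairs). Array medians averaged 4.160 ± 0.024 after styrene (SD, n = 15) and 4.178 ± 0.013 in air (SD, n = 5), a difference of -0.0178 (two-sided exact permutation p = 0.0771). A few arrays stood apart in genes of other tissues. Air replicate 4 had the highest summed log2 level of 10 skeletal muscle genes, 10.4, while the exposed arrays lay between 7.96 and 9.77 and the other air arrays between 8.29 and 9.12. Tnnc2, a troponin of fast muscle, read 7.32 there, while the other air arrays read 2.88 to 3.07. Liver genes stood out in 40 ppm replicate 2, where Serpina1c, a liver antiprotease, read 7.52 and Alb, serum albumin, read 7.09. In 120 ppm replicates 1 and 3, Serpina1c read 4.89 and 5.87. Without these 4 arrays the pooled comparison still called 0 genes, as it did with them.

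No gene changed by the test in KO lungs. The moderated test of limma with Benjamini-Hochberg adjustment over 11406 genes called 0 genes at an adjusted p under 0.05 in either direction (0%), and the lowest adjusted p was 0.233. At an unadjusted p under 0.05 there were 644 genes (5.65%), 359 of them higher after styrene (3.15%) and 285 lower (2.5%). When no gene differs, 570.3 genes are expected below that p. The median difference over all genes was 0.0048, and 6002 estimates lay above 0 (52.6%). Testing each dose alone, limma also called 0 genes at 10, 40 and 120 ppm. Unadjusted p fell under 0.05 in 649 genes at 10 ppm (5.69%), 564 at 40 ppm (4.94%) and 596 at 120 ppm (5.23%). The 3 doses share the 5 air arrays, so these counts are not independent of one another.

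The same comparison in WT lungs called 3373 genes (29.6%), 1856 higher after styrene (16.3%) and 1517 lower (13.3%). The difference between the strains was tested directly, as the KO response minus the WT response on 40 arrays. It passed for 1964 genes (17.2%), with the KO response above that of WT in 888 (7.79%) and below it in 1076 (9.43%). The plot of both responses shows the WT changes spread along their axis and the KO values close to 0.

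**Figure D1:**
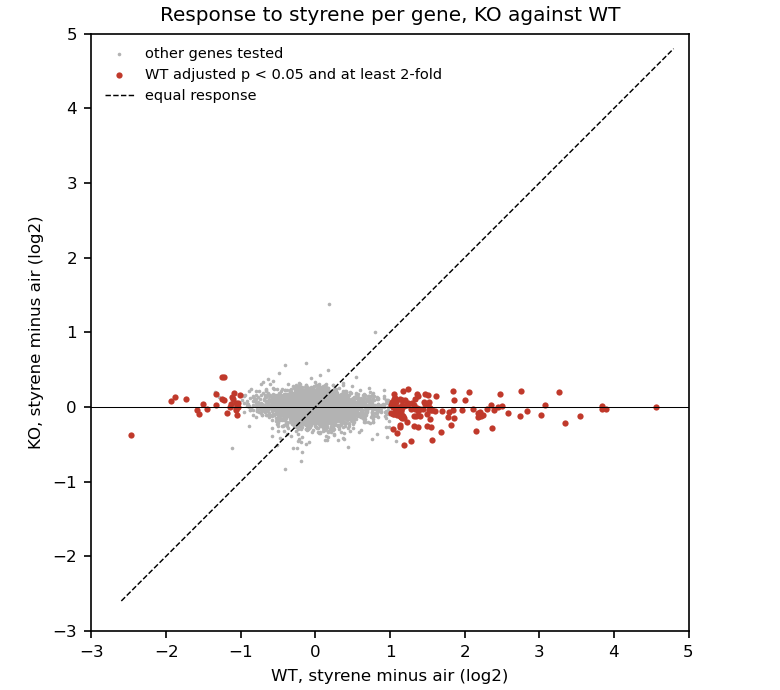
Each point is 1 of 11406 genes, with the WT response to styrene on the horizontal axis and the KO response on the vertical axis, both as log2 styrene minus air over 15 exposed and 5 air arrays. The 153 genes called in WT with a change of at least 2-fold are red, and all of them lie between -0.51 and 0.41 in KO.

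The size of change that the KO arrays leave room for follows from the intervals. The margin of the 95% interval, from the estimate to either bound, had a median of 0.152 log2 units over the 11406 genes, which is 1.11-fold. For the 120 ppm group alone, with 5 exposed arrays, the median margin was 0.186. In 95% of genes the pooled margin was at most 0.283, or 1.22-fold. Both bounds of the interval lay within 1.2-fold of no change in 8117 genes (71.2%) and within 1.5-fold in 11247 genes (98.6%). Within 2-fold were 11380 genes (99.8%). These intervals hold for 1 gene at a time. Widened by the Bonferroni method so that they hold for all genes together, 7434 genes (65.2%) stayed within 1.5-fold and 10943 (95.9%) within 2-fold. An equivalence test, which asks whether a change of 1.5-fold or more can be rejected on both sides, passed for 11302 genes (99.1%, limma with Benjamini-Hochberg adjustment).

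A probe set near the lower end of the array may show little of a fall. The lowest value in the table was 1.88, and a detection limit was not measured. For 10390 genes (91.1%) the mean of the air KO arrays lay above 4.28, the median signal of the table, and 10259 of these (98.7%) had intervals within 1.5-fold. The narrowest intervals belonged to Rps6, a protein of the small ribosomal subunit, Tpm3, a tropomyosin, and Sftpc, the surfactant protein of alveolar type 2 cells. Sftpc read 13.66 at the lowest, 13.73 at the median and 13.79 at the highest in the exposed arrays, against 13.65, 13.72, 13.71, 13.69 and 13.68 in air. These groups overlapped, and the Sftpc interval ran from -0.04 to 0.11. These values lie near the highest signal of the table, 13.9, and whether the probe set could still show a rise there was not tested.

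**Figure D2:**
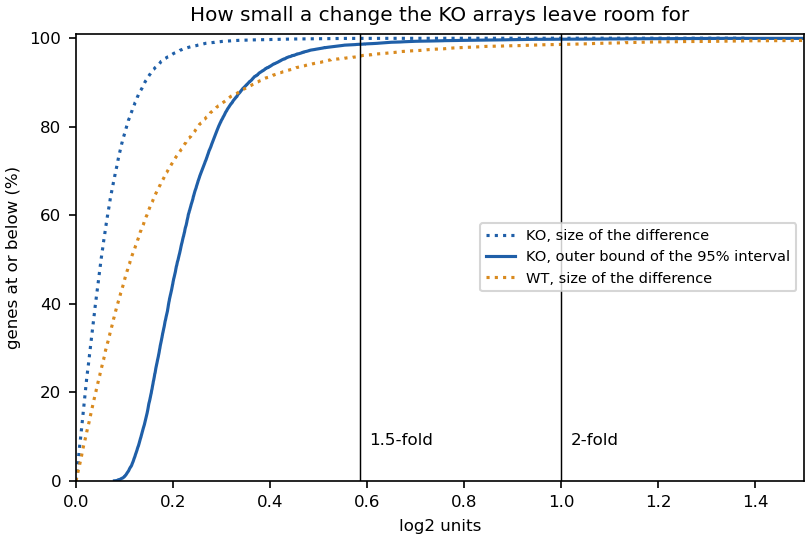
Share of the 11406 genes (vertical axis, percent) at or below a given size in log2 units (horizontal axis). The curves show the size of the KO difference, the bound of its 95% interval that lies farther from 0, and the size of the WT difference; 98.6% of KO bounds lie left of the 1.5-fold line and 99.8% left of the 2-fold line.

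For 159 genes the interval reached past 1.5-fold. It did so on both sides in 20, on the upper side alone in 39 and on the lower side alone in 100. Among the 159, 36 had an unadjusted p under 0.05, and none passed the adjusted test. Several differed widely among lungs of the same dose. Nppa, the atrial natriuretic peptide of cardiac muscle, had the widest interval, from -1.48 to 1.10. Ltf, lactoferrin of airway glands and neutrophils, read 6.59 to 10.24 after styrene with a median of 9.35, against 8.16, 8.36, 9.43, 10.47 and 7.40 in air, and 3 exposed arrays lay below the air range and 0 above it. Its interval ran from -1.28 to 1.23. For these genes a change of 2-fold in either direction lies inside the interval.

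The largest positive estimates were those of Clca1 and Cyp26b1. Clca1, a secreted product of goblet cells, read 3.85 at the lowest, 5.42 at the median and 8.10 at the highest after styrene, against 4.07, 3.41, 3.80, 5.95 and 3.84 in air. In 6 of the 15 exposed arrays it lay above the highest air array, which was replicate 4, and the rest overlapped. The difference was 1.38 ± 0.55 (SE, limma adjusted p = 0.845), with an interval from 0.24 to 2.52. When the probe sets of a gene were averaged, the Clca1 difference was 0.68. Cyp26b1, which breaks down retinoic acid, read 4.46 to 9.59 after styrene with a median of 6.69, against 4.93, 5.30, 5.78, 7.43 and 5.07 in air. Its difference was 1.00 ± 0.55 (adjusted p = 0.927), and 2 exposed arrays, 120 ppm replicates 1 and 2, lay above the highest air array. Serpina1c had a wide interval too, from -0.75 to 1.74, and its 3 high arrays are the ones named above. The part of other tissues in these values was not tested.

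**Figure D3:**
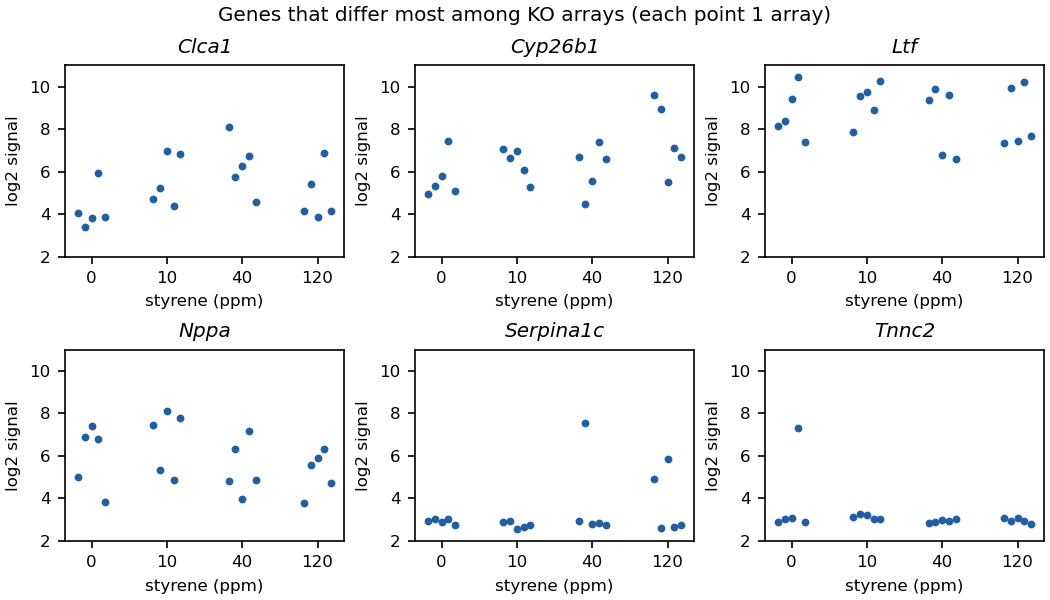
Log2 signal (vertical axis) of 6 genes that differ widely among KO lungs, by dose (horizontal axis), with 1 point per array and 5 arrays per dose. They are the 5 genes with the widest intervals and Tnnc2, which was added with the data in view. Serpina1c is high in 3 exposed arrays and Tnnc2 in 1 air array, while Clca1, Cyp26b1, Ltf and Nppa spread at every dose.

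The genes that answered styrene most in WT lungs were then read in KO lungs. They were picked on their WT values, which are therefore a description. Over all 3373 genes called in WT, the KO estimate pointed the way of WT in 1472 (43.6%). The KO interval stayed short of the WT estimate in 2984 of them (88.5%) and short of 50% of it in 1790 (53.1%). There were 153 genes called in WT with a change of at least 2-fold, 126 higher (82.4%) and 27 lower. The KO median over the 126 was -0.03 (over the WT rises themselves 1.37), and over the 27 it was 0.05 (WT median -1.22). The KO estimate pointed the way of WT in 54 of the 153 (35.3%). In every one of the 153 genes, the 95% interval of the KO response stayed short of 50% of the WT response on the log2 scale, and in 133 (86.9%) it stayed short of 25%. The first count was 148 when all 16 groups were fitted together or without KO air replicate 1. The test of KO minus WT, which shares the WT values used to pick the genes, passed in 149 (97.4%). The 4 that did not pass were Arg1, Calml3, Sprr1a and Sult1d1; Arg1 and Sprr1a were named after their values were seen. The KO interval lay within 1.5-fold in 142 (92.8%). In KO, 0 of the 153 were called, and 18 had an unadjusted p under 0.05 (11.8%, against 5.65% of all genes). Of the 153, 108 had an air KO mean above 4.28, and in all 108 the interval stayed short of 50% of the WT response.

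Interferon-stimulated genes led the WT response, and their promoters are shown because they carry the binding element of the interferon pathway. Interferon receptors activate a STAT and IRF9 complex that binds the interferon-stimulated response element. The letters GAAA, any 2 bases and GAAA again were searched on both strands in RefSeq promoters (GRCm38.p6), which reach from upstream of the start of each gene to just after it, and matches were allowed to overlap. The element was found in 3.44% of 32851 promoters, in 340 of the 9205 tested genes with a promoter (3.69%), and in 26 of the 97 such genes that were at least 2-fold higher in WT (26.8%). The promoters of Cxcl10 (chr5:92348840-92349139, minus strand), Rsad2 (chr12:26456403-26456702, minus strand) and Ifit1 (chr19:34640639-34640938, plus strand) follow, each 5′ to 3′ along its own gene, with the element in capitals; in the last 2 it reads on the opposite strand, and Ifit1 has 2 copies.
Cxcl10: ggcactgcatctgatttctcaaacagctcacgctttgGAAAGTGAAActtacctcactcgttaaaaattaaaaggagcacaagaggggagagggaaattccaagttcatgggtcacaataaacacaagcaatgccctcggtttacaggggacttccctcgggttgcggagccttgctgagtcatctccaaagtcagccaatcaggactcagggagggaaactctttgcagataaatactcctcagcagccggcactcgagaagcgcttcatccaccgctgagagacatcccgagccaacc
Rsad2: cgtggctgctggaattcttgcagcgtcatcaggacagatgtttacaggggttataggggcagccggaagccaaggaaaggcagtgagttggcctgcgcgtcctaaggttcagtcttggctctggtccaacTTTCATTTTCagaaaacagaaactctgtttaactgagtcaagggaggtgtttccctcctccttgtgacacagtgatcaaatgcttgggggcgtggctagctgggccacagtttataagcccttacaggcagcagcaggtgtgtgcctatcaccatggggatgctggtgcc
Ifit1: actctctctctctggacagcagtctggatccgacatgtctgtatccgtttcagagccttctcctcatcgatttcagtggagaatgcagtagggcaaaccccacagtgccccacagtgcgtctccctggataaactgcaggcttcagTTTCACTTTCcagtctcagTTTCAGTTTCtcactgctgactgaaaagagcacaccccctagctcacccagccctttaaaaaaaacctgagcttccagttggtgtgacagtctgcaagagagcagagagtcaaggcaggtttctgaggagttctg
Oasl1 and Irf7 had no match in this window.

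Genes with this element gave 0 calls in KO. Over the 340 genes the KO median was 0.0030, with 10 higher and 18 lower at an unadjusted p under 0.05 (8.24%, against 5.65% of all genes). Of all genes, 3.15% were higher and 2.5% lower at that p, so the surplus lay among the lower genes. Over the 26 that were at least 2-fold higher in WT, the KO median was -0.11, with values from -0.46 to 0.20, against a WT median of 1.55.

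Cxcl10, a chemokine that draws T cells, was the largest WT response. In KO lungs it read 3.42 at the lowest, 3.71 at the median and 3.98 at the highest after styrene, against 3.92, 3.58, 3.96, 3.35 and 3.74 in air. Only 1 exposed array lay above the air range, and the rest lay within it. The KO difference was 0.00 ± 0.09 with an upper bound of 0.18, or 1.14-fold, while WT rose by 4.57 ± 0.33. The WT air mean was 3.66, below 4.28, so the WT rise may be understated. All 20 KO values lay below 4.28 too, so a fall in KO may have been hard to see.

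Ifit1 and Rsad2, antiviral effectors, were well above that level in both strains. Ifit1 read 6.93 at the lowest, 7.09 at the median and 7.73 at the highest after styrene, against 7.45, 7.08, 7.17, 7.54 and 7.20 in air. Its difference was -0.11 ± 0.09 with an upper bound of 1.05-fold, against a WT rise of 8.16-fold. By dose, the Ifit1 mean was 7.13 at 10 ppm, 7.42 at 40 ppm and 7.00 at 120 ppm, and all 5 arrays at 40 ppm lay above all 5 at 120 ppm. The F test among exposed doses did not pass for Ifit1 (limma adjusted p = 0.969). Rsad2 read 6.31 to 7.41 after styrene with a median of 6.91, against 7.32, 6.76, 6.67, 6.96 and 7.23 in air. In both genes the exposed arrays overlapped the air arrays, and the Rsad2 upper bound of 1.13-fold compares with a WT rise of 11.7-fold. For Irf7, the transcription factor that amplifies interferon production, the upper bound was 1.11-fold against 7.14-fold in WT. Mx1 and Oasl1, also antiviral, had KO differences of 0.01 ± 0.05 and -0.03 ± 0.09 and rose by 3.84 ± 0.21 and 3.89 ± 0.20 in WT. Both had air means at or below 4.28 in both strains. Their WT rises may be understated, and a fall in KO may have been hard to see. Zbp1, a sensor of nucleic acids, had an upper bound of 1.17-fold against 6.71-fold.

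The interferon list had 12 members tested, 5 of them with an air KO mean below 4.28. All 12 rose in WT, 0 were called in KO, and 0 of the 12 had an unadjusted KO p under 0.05. The KO median was -0.04, beside 0.0048 for all genes, and the WT median was 2.66. The member with the lowest KO p was Cxcl9, a chemokine, at -0.26 with an interval from -0.53 to 0.02. The KO response lay below that of WT in all 12 by the test of the difference. Of the other inducible genes among the 20 with the largest WT changes, Apol9a had a KO estimate of 0.20 ± 0.09 (adjusted p = 0.845) and Ccl12, a monocyte chemokine, 0.21 ± 0.11 (adjusted p = 0.902), both below 4.28 in all 20 KO arrays. Gm9706 had -0.02 ± 0.08, read by a probe set whose design can match several transcripts.

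Inflammation genes gave 16 tested members, 6 of them with an air KO mean below 4.28. Of the 16, 10 rose in WT and 0 were called in KO, where 2 were higher and 2 lower at an unadjusted p under 0.05. The KO median was 0.0004 and the WT median 1.24. Saa3, an acute phase protein, read 4.40 to 5.11 after styrene in KO with a median of 4.77, against 4.90, 5.00, 5.71, 4.85 and 4.62 in air. No exposed array lay above the highest air array, and the KO interval of -0.47 to 0.03 compares with a WT rise of 3.35 ± 0.33. Timp1, an inhibitor of matrix proteases, had a KO difference of 0.02 ± 0.11 and a WT rise of 3.08 ± 0.27. Socs3, which dampens cytokine signals, was at 0.17 ± 0.07 in KO (adjusted p = 0.845) and rose by 1.36 ± 0.14 in WT.

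**Figure D4:**
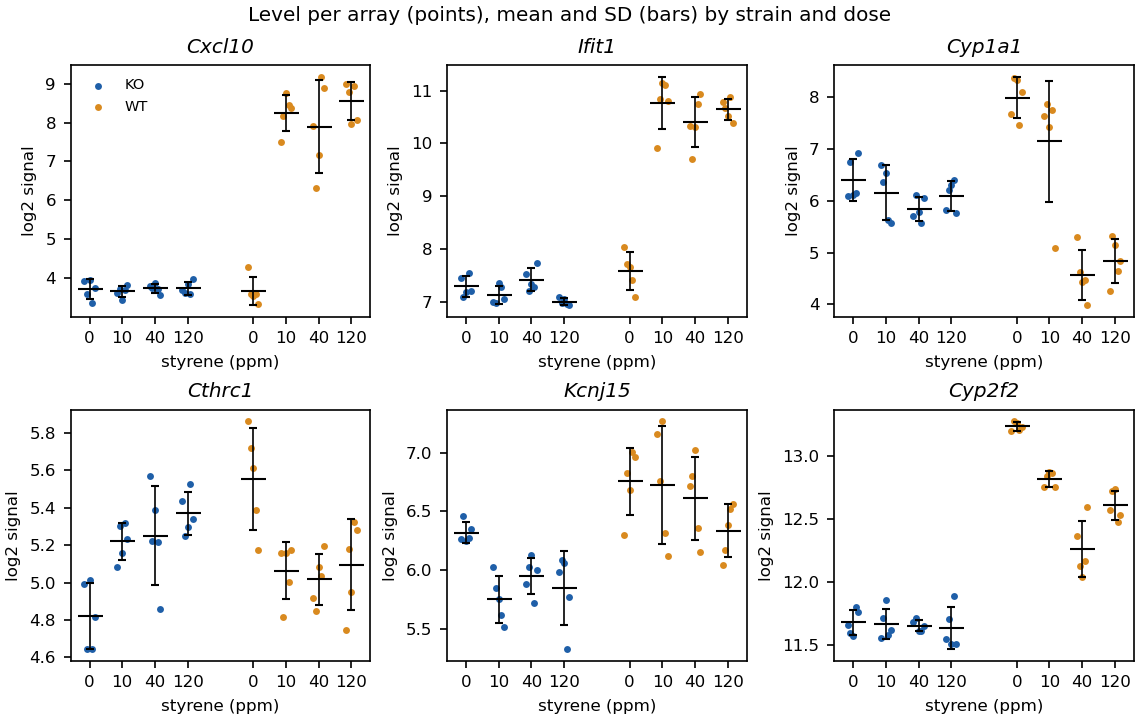
Log2 signal per array (points) with mean and SD (bars, n = 5 arrays per dose) for 6 genes, KO at the left and WT at the right of each panel, by styrene dose. In KO, Cxcl10 lies below 4.28 in every array and Ifit1 reads 6.93 to 7.73 after styrene, Cthrc1 and Kcnj15 are the genes with the lowest p above and below air in KO, and Cyp2f2 is lower in KO than in WT in every array.

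Genes that fell in WT included those of airway cells. Cyp1a1, a P450 that the aryl hydrocarbon receptor induces, fell by 2.47 ± 0.33 in WT and was the member of its list with the lowest p in KO. In KO it read 5.57 at the lowest, 6.06 at the median and 6.69 at the highest after styrene, against 6.09, 6.75, 6.12, 6.15 and 6.94 in air. In 8 of 15 exposed arrays it lay below the lowest air array, and the groups overlapped. The KO difference was -0.38 ± 0.18 (unadjusted p = 0.0465, adjusted p = 0.864), and the interval from -0.74 to -0.01 reached 30.1% of the WT change. The 2 strains differed, by 2.10 ± 0.39 (KO minus WT, adjusted p = 0.000174). The Cyp1a1 promoter (chr9:57697363-57697662, plus strand, GRCm38.p6) is shown for the core of the xenobiotic response element, GCGTG, in capitals, which 32.4% of all promoters hold on either strand. Of the 9205 tested genes with a promoter, 5065 hold this core (55.0%).
Cyp1a1: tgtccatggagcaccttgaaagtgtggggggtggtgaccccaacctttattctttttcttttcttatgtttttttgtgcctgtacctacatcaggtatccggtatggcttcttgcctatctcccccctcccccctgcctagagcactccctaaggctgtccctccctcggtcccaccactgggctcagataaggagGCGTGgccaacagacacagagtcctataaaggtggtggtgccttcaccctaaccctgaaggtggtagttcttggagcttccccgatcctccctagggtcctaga

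Pon1, a lactone-hydrolysing enzyme of club cells and plasma, fell by 1.56 ± 0.12 in WT. In KO it read 9.32 to 10.42 after styrene with a median of 10.01, against 9.79, 10.18, 9.98, 10.30 and 10.28 in air. The groups overlapped, and the difference was -0.10 ± 0.13. Lypd2 and Chad, which airway secretory cells express, were at 0.14 ± 0.19 and 0.10 ± 0.18 in KO and fell in WT by 1.88 ± 0.31 and 1.73 ± 0.31. Mycl, a transcription factor of the MYC family, was at 0.04 ± 0.08 in KO and fell by 1.51 ± 0.15 in WT. Asgr1, a subunit of the asialoglycoprotein receptor, was at -0.02 ± 0.15 and fell by 1.45 ± 0.19 in WT. For Calml3, a calmodulin-like protein of epithelia, and Sult1d1, a sulfotransferase, KO values spread over more than 2 log2 units between arrays. WT values spread more: after styrene the SD was 1.47 and 1.19 in WT, against 0.66 and 0.57 in KO. For these 2 genes KO minus WT did not pass (limma adjusted p = 0.0817 and 0.0711).

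Lung cell markers checked the tissue and the epithelium. All 10 club cell markers tested lay above 4.28 in air KO lungs, 0 were called in KO, and their intervals lay between -0.36 and 0.22. Their KO median was -0.03, with 7 of 10 below 0, while 9 of 10 fell in WT and the WT median was -0.47. Cldn10, a tight junction protein, was at 0.09 in KO with an interval from -0.05 to 0.22, against -0.67 in WT. Ciliated cell markers (11 tested) had a KO median of 0.05, alveolar type 2 markers (10 tested) -0.0099 and alveolar type 1 markers (9 tested) 0.0079, with every member within 1.5-fold. Several other cell lists held genes with wider intervals. Within 1.5-fold were 2 of 5 mesothelial, 5 of 8 neutrophil and 6 of 8 smooth muscle and pericyte genes. Of the airway secretion genes, 3 of 10 had intervals within 1.5-fold, their KO median was 0.12, and the list spread from lung to lung, with a summed log2 level of 11.60 to 13.82 after styrene and 12.45 to 13.89 in air. Cardiac muscle genes (8 tested, KO median -0.18) and adipose genes (5 tested, KO median -0.26) had 2 members each within 1.5-fold. In the mouse, cardiac muscle sheathes the pulmonary veins and fat can adhere to a dissected lung, and the part of either in these values was not tested.

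Genes of styrene metabolism and of xenobiotic metabolism in general, other than Cyp2f2, also gave no call in KO. Of 29 tested, 27 had intervals within 1.5-fold and the KO median was 0.0057. The exceptions included Cyp2a5, a P450 whose interval ran from -0.80 to 1.09. Ephx1, the epoxide hydrolase that opens styrene oxide, read 9.80 at the lowest, 9.92 at the median and 10.32 at the highest after styrene in KO, against 9.82, 9.78, 9.92, 9.89 and 9.74 in air. Its 15 exposed arrays overlapped the air range in 8, and 7 lay above it. The KO difference was 0.12 ± 0.06 (adjusted p = 0.857), while Ephx1 fell by 0.48 ± 0.06 in WT. Cyp4b1, another lung P450, was at -0.09 with an interval from -0.18 to 0.01. Gstt1, a glutathione transferase, was at 0.10 with an interval from -0.01 to 0.21.

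Oxidative defence genes under NRF2, the factor that answers glutathione loss, numbered 19 tested, all with intervals within 1.5-fold in KO. None was called and none had an unadjusted p under 0.05 in KO, while 13 rose and 2 fell in WT. Gclc, the rate-limiting enzyme of glutathione synthesis, was at -0.07 in KO with an interval from -0.16 to 0.02, against a WT value of 0.63. Srxn1, sulfiredoxin, was at 0.09 with an interval from -0.04 to 0.22, against 0.70 in WT. DNA replication genes (21 tested, 8 with an air KO mean below 4.28) had a KO median of 0.03, with 0 called and every interval within 1.5-fold, while all 21 rose in WT with a median of 0.77. Sterol synthesis genes (14 tested) had a KO median of -0.03 with every interval within 1.5-fold, while 13 rose in WT. Rrm2, a subunit of ribonucleotide reductase, was at 0.10 with an interval from -0.07 to 0.28 in KO, against 1.33 in WT. Its KO air mean of 3.82 lay below 4.28, so a fall may have been hard to see.

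Over all 36 lists, 0 had a called member in KO. The list medians ran from -0.26 to 0.12, and 29 lay within 0.1 of 0. Among the 368 distinct members tested, 320 had intervals within 1.5-fold (87.0%, against 98.6% of all genes) and 24 had an unadjusted p under 0.05 (6.52%, against 5.65% of all genes). Glucocorticoid response genes had the lowest median of the process lists, -0.23, with 16 of 17 members below 0. None of the 17 was called, and 8, all lower after styrene, had an unadjusted p under 0.05, where 2.5% of all genes were lower at that p. This pattern was known from earlier results on the same arrays and has no independent support here. Ddit4, an inhibitor of mTOR signalling, read 6.58 at the lowest, 6.75 at the median and 6.94 at the highest after styrene, against 6.98, 7.42, 6.92, 7.19 and 6.76 in air. In 9 exposed arrays it lay below the lowest air array, and its difference was -0.31 ± 0.08 (adjusted p = 0.563). Angptl4, an inhibitor of lipoprotein lipase, was at -0.43 ± 0.14, Pdk4, which blocks pyruvate oxidation, at -0.44 ± 0.16 and Klf9, a transcription factor, at -0.23 ± 0.09, with adjusted p of 0.754, 0.841 and 0.845 by limma. The WT responses of these 4 genes were 0.11, 0.39, 0.30 and -0.23. KO minus WT did not pass for any of the 4 (limma adjusted p between 0.0587 and 0.986). Of the 17 members, KO minus WT passed for 2, with KO below WT, among them Cdkn1a (-0.92, limma adjusted p = 0.00328). Among the 4 genes, it passed under alternatives for Angptl4 (lowest limma adjusted p = 0.00927, without WT air replicate 5), Pdk4 (0.0167, without the 10 ppm arrays) and Ddit4 (0.0305, without WT 40 ppm replicate 4). The Angptl4 difference in KO was -0.21 when its probe sets were averaged.

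**Figure D5:**
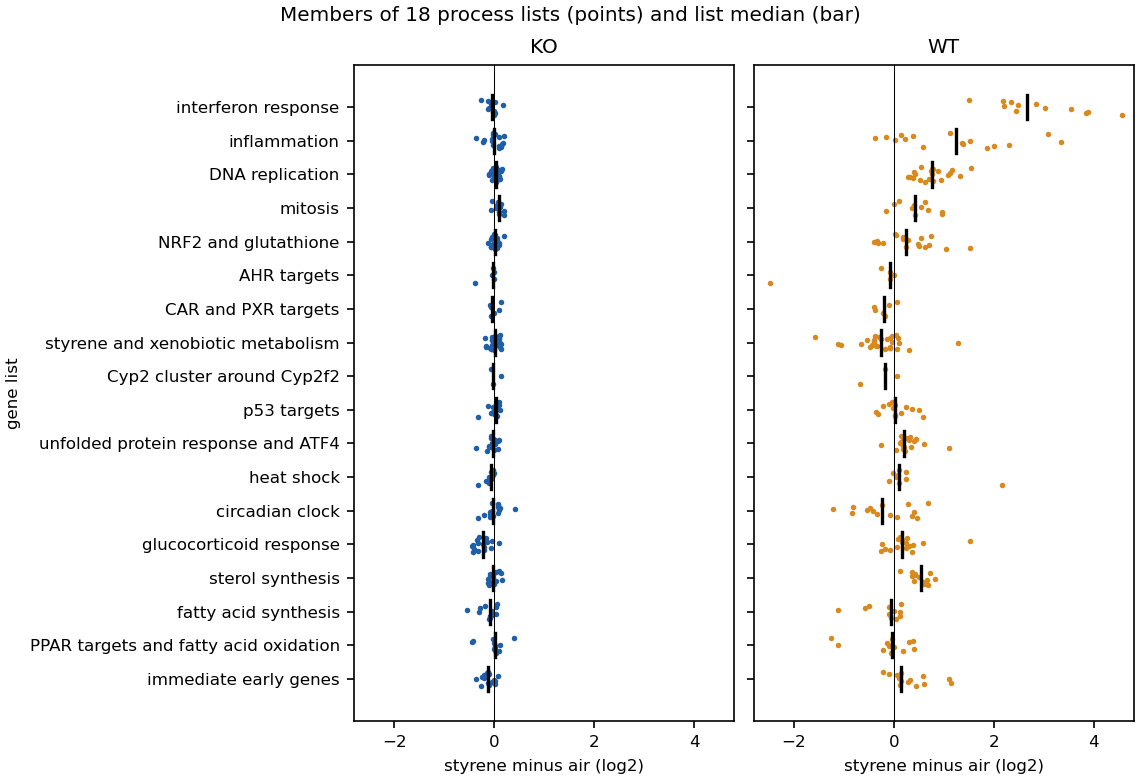
Response to styrene (log2 styrene minus air, horizontal axis) of the tested members of 18 process lists, in KO (left) and WT (right), with 1 point per gene and the list median as a bar. KO medians lie between -0.23 and 0.09, while the WT interferon median is 2.66.

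The genes with the lowest p in KO were described by rank. None of the 20 described by this rank passed the adjusted test. Cthrc1, a secreted protein of remodelling tissue, had the lowest p. It read 4.86 at the lowest, 5.30 at the median and 5.57 at the highest after styrene, against 4.99, 4.64, 5.01, 4.65 and 4.82 in air. In 14 of 15 exposed arrays it lay above the highest air array. The difference was 0.46 ± 0.09 (unadjusted p = 3.32e-05, adjusted p = 0.233), or 1.37-fold. Cthrc1 fell in WT by 0.49 ± 0.10, and KO minus WT was 0.95 ± 0.14 (adjusted p = 3.24e-06).

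Dok3, an adaptor that restrains immune receptor signals, read 5.17 at the lowest, 5.34 at the median and 5.61 at the highest after styrene, against 5.03, 5.24, 4.92, 4.99 and 5.00 in air. In 12 exposed arrays it lay above the air range, and its difference was 0.33 ± 0.06 (adjusted p = 0.233). Hdac11, a histone deacetylase family enzyme, was at 0.37 ± 0.08 (adjusted p = 0.462) and Igf2, a growth factor, at 0.32 ± 0.08 (adjusted p = 0.563). The Igf2 difference was 0.12 when its probe sets were averaged. Hdac11 fell by 0.63 ± 0.09 in WT, and KO minus WT was 1.00 ± 0.13 (adjusted p = 3.02e-07). The other 6 above air were Parp6, Nit2, Stard4, Mrpl54, Fat2 and Emcn, with differences between 0.16 and 0.29.

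Below air, Kcnj15, an inward rectifier potassium channel, had the lowest p. It read 5.32 at the lowest, 5.88 at the median and 6.12 at the highest after styrene, against 6.26, 6.46, 6.25, 6.27 and 6.35 in air. The groups did not overlap. The difference was -0.47 ± 0.10 (adjusted p = 0.417), and the WT difference was -0.20 ± 0.17. Without overlap were 5 of the 11406 genes in all (0.0438%): Kcnj15, Rnf125, Twf2 and 3300002A11Rik below air (0.0351%), and Stard4 above it (0.00877%). 3300002A11Rik was named after its values were seen, and its difference was -0.25 ± 0.07 (adjusted p = 0.666). Stard4, which carries cholesterol within cells, read 7.27 to 7.49 after styrene, against 7.21, 7.12, 7.25, 7.22 and 7.19 in air, and its 2 other probe sets gave estimates down to -0.19. Rnf125, a ubiquitin ligase, was at -0.26 ± 0.06 in KO and fell by 0.26 ± 0.07 in WT.

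Atf3, a stress-induced transcription factor, was also among the 10 below air. It read 4.59 at the lowest, 4.88 at the median and 5.16 at the highest after styrene in KO, against 5.21, 5.05, 5.57, 5.03 and 5.17 in air. In 14 exposed arrays it lay below the air range. Its KO difference was -0.36 ± 0.09 (adjusted p = 0.563), while it rose by 1.10 ± 0.14 in WT. Nfkbia, the inhibitor of NF-kappaB, was at -0.20 ± 0.05 (adjusted p = 0.563). The rest were Asap1, Akap2, Whamm, Ddit4, Twf2 and Cplane1, with differences between -0.39 and -0.19.

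Pooling the 3 doses would miss a change that went up at 1 dose and down at another, so the doses were also compared with one another. The F test for any dose against air called 0 genes (556 at an unadjusted p under 0.05, 4.87%), with a lowest adjusted p of 0.245 (limma). The F test among the 3 exposed doses called 0 (528 unadjusted, 4.63%), with a lowest adjusted p of 0.159. Compared in pairs, a step added after the data had been seen, 1 gene passed at 120 ppm against 10 ppm (0.00877%), and 0 passed at 40 against 10 ppm and at 120 against 40 ppm. That gene was Epha4, a receptor for ephrins. It read 5.95, 5.63, 5.46, 5.49 and 5.50 at 10 ppm, 5.88, 6.22, 6.26, 5.85 and 6.11 at 40 ppm, and 6.34, 6.17, 6.26, 6.14 and 6.41 at 120 ppm, with 5.98, 6.10, 5.85, 5.82 and 6.24 in air. All 120 ppm arrays lay above all 10 ppm arrays, and both groups lie partly inside the air range. The difference between 120 and 10 ppm was 0.66 ± 0.11 (adjusted p = 0.0467 over all genes, not adjusted for the 3 pairs of doses).

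Inpp4b, a phosphoinositide phosphatase, had the lowest p of 10 ppm against air (adjusted p = 0.0592). It read 5.11, 4.73, 4.93, 5.16 and 5.06 at 10 ppm, 5.55, 5.21, 5.44, 5.68 and 5.52 at 40 ppm and 5.61, 5.65, 5.65, 5.12 and 5.57 at 120 ppm, with 5.88, 5.69, 5.59, 5.45 and 5.75 in air. The 10 ppm arrays lay below all air arrays, and the other doses overlapped them. The differences from air were -0.68, -0.19 and -0.15 at 10, 40 and 120 ppm. Pnma1 and Lrig2, the other genes named by the F test among exposed doses, had adjusted p of 0.250 and 0.408 by limma.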

How the data were processed

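Whole-lung RNA was measured on Affymetrix arrays, 1 per biological replicate. Per the submitters' processing notes, the authors made the deposited log2 values with RMA and Partek; no source used here gives versions, settings or whether the strains were normalized together, so strains were compared by their responses; the level of Cyp2f2 and the array medians are given side by side as a description. The table holds 45037 probe sets, of which 28898 had 1 gene symbol in the platform annotation, 551 several and 15588 none. Each of 17097 genes was represented by its brightest probe set on average over 80 arrays, and 11406 genes with a signal above 4.28 (the median of the table) in at least 5 of 80 arrays were tested. Of 40 genes named by rank, probe sets of the same gene disagreed in sign for Stard4, Asap1, Cplane1 and Gm9706.

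For each strain limma 3.58.1 (R 4.3.3) fitted a mean per dose to 20 arrays, leaving 16 residual degrees of freedom, and the mean of the 3 exposed doses was compared with air. KO minus WT used 40 arrays and 32 residual degrees of freedom. Adjusted p-values follow Benjamini and Hochberg across the tested genes, with a threshold of 0.05. Intervals are moderated 95% intervals, and errors are SE unless SD is given. Precision is limited by the number of arrays. The p-values and intervals set a difference against the spread between arrays of the same dose. No label names separate cages or litters, so whether that spread includes variation between them cannot be told. The array medians were compared by an exact permutation test. The code was tested on simulated data. Other steps used Python 3.11.15 with numpy 2.4.6, pandas 2.3.3, scipy 1.17.1 and matplotlib 3.10.9. Promoters came from RefSeq (GRCm38.p6).

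The arrays compared, the genes and the 36 gene lists were chosen with earlier results of these data known. By rule the text names Cyp2f2, the 10 genes above and 10 below air with the lowest p in KO, the 3 with the lowest p in each F test, the 12 largest rises and 8 largest falls in WT, the 5 widest and 3 narrowest intervals in KO and up to 4 members of each list. Lists of skeletal muscle and liver genes were a later addition, made with the data in view. Alternatives covered the model, weights, centring, filter, choice of probe set, a replicate block and leaving out arrays or doses. TG and CD-1 arrays were used only for the signal filter and in 1 alternative fit.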

Additional observations from a re-analysis of the deposited data

Results flagged for a closer look

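A single array stood far from the other 4 of its group in 17 of 280 groups of values examined, where chance gives 14 (Dixon's criterion at the 95% level, 5 arrays per group). In KO 10 ppm replicate 1 this held for Pnma1 at 4.09 and Fabp1 at 6.59. KO 10 ppm replicate 2 had Ccl12 at 2.97. For KO 10 ppm replicate 3 the values were Mrpl54 at 6.87 and Saa3 at 4.397. In KO 40 ppm replicate 2 this held for Serpina1c at 7.52. KO 40 ppm replicate 5 had Socs3 at 6.74. For KO 120 ppm replicate 2 the values were the array median at 4.095. In KO 120 ppm replicate 4 this held for Inpp4b at 5.12, Timp1 at 6.68, Lpl at 10.31 and Xbp1 at 11.21. KO air replicate 1 had Oasl1 at 4.19. For KO air replicate 4 the values were Lypd2 at 9.79, Chad at 8.98, Clca1 at 5.95 and Xbp1 at 11.22. All are log2 signals. The largest gap was that of Serpina1c, whose next array read 2.95. Without the 4 arrays high in muscle or liver genes, among them the Serpina1c array, the pooled comparison called 0 genes.

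The response to styrene differed between KO and WT, by limma's test of KO minus WT on 40 arrays with Benjamini-Hochberg adjustment over all genes, in 39 of 69 genes examined, against 17.2% of all genes. Many of the 69 were picked for a large WT change or a low KO p, which bears on that count. Values are log2 differences in response, KO minus WT. KO lay below WT for the genes that rose most in WT: Cxcl10 at -4.57, Oasl1 at -3.92, Mx1 at -3.83, Gm9706 at -3.86, Rsad2 at -3.66 and Saa3 at -3.57. The rest of these were Apol9a at -3.06, Timp1 at -3.06, Ifit1 at -3.13, Irf7 at -2.90, Ccl12 at -2.54 and Zbp1 at -2.87. KO also lay below WT for Asap1 at -0.40, Whamm at -0.53, Atf3 at -1.45, Tpm3 at -0.17, Socs3 at -1.19, Cdkn1a at -0.92, Hspa5 at -0.37, Xbp1 at -0.30 and Arntl at -0.78. KO lay above WT for genes that fell in WT: Cyp2f2 at 0.64, Cyp1a1 at 2.10, Lypd2 at 2.02, Chad at 1.84, Pon1 at 1.47, Mycl at 1.54, Asgr1 at 1.43, Ephx1 at 0.60 and Fabp1 at 1.65. The remaining genes with KO above WT were Cthrc1 at 0.95, Dok3 at 0.33, Parp6 at 0.37, Hdac11 at 1.00, Nit2 at 0.32, Igf2 at 0.54, Fat2 at 0.42, Pnma1 at 0.29 and Cd8a at 0.41. Their WT means after styrene were also below those in air, though barely so for Dok3 (5.215 against 5.219). The adjusted p of these 39 ran up to 0.0371, that of Asap1. In KO alone, 0 of the 39 passed the adjusted test.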

How the results depend on the processing

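The pooled KO comparison called 0 genes under every planned model, filter, weighting and choice of probe set. Leaving out 1 array at a time gave 0 to 1 gene: without 40 ppm replicate 5, Cthrc1 passed (limma adjusted p = 0.0205). Over its 33 alternatives the Cthrc1 difference ran from 0.41 to 0.51, with adjusted p from 0.0205 to 1. The F test for any dose gave 1 gene with array weights (Inpp4b, adjusted p = 0.0353) and 0 to 1 with 1 array left out: Epha4 without 10 ppm replicate 1 (adjusted p = 0.0473) and Inpp4b without 120 ppm replicate 4 (adjusted p = 0.0273). The F test among exposed doses gave 3 with array weights (Epha4, Inpp4b and Pnma1), 0 to 1 with 1 array left out (Epha4 without 10 ppm replicate 1, adjusted p = 0.0148), and 1 gene passed for the pair of 120 and 10 ppm, a comparison added after the data had been seen. The causes were not tested. The equivalence test within 1.5-fold passed for 16988 of 17097 genes with no filter and for 18071 of 18208 when every probe set was tested, since more features entered; with 1 array left out it passed for 11248 to 11302. The array level difference ran from -0.02135 to -0.01295 with 1 array left out, with exact permutation p from 0.0382 to 0.281. WT calls ran from 2672 to 3640 and KO minus WT calls from 1662 to 2117 with 1 array left out, and KO minus WT gave 1355 when all 16 groups were fitted together. The KO interval stayed short of 50% of the WT change in 148 of 153 genes when all 16 groups were fitted together and in 148 to 153 with 1 array left out; a filter on each strain's own arrays left 85 such genes, all of them short. No estimate of a called result turned its sign. Among named genes, KO minus WT lost its call in 85 alternative values and gained it in 56, beside 9324 on the same side of the threshold. Without the 4 arrays high in muscle or liver genes, also added later, the pooled comparison and both F tests called 0 and KO minus WT 1864. With the replicate number as a block the pooled comparison and both F tests called 0, the equivalence test 11313, WT 3317 and KO minus WT 1983. Whether the numbers pair the arrays could not be told from these values. Of 30 same-numbered pairs, 10 correlated above 0.1 (median 0.047), against a median of -0.045 over 120 other pairs. In 6 of 20 arrays the best correlation was with an array of their own number. A fall may be hard to read in genes near the low end of the signal, and 10390 of 11406 had an air KO mean above 4.28.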

Other observations

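A few genes that were neither ranked nor listed had intervals past 1.5-fold in KO and were named after their values were seen. Tgtp1, Igtp and Irgm2, guanosine triphosphatases that interferon-gamma induces, had KO differences of -0.45, -0.46 and -0.40. Their levels varied more in air than after styrene: Tgtp1 averaged 8.92 ± 0.30 after styrene (SD, n = 15) and 9.37 ± 0.76 in air (SD, n = 5). Nlrc5, an activator of MHC class I genes, averaged 5.89 ± 0.33 after styrene and 6.40 ± 0.64 in air, a difference of -0.51. None of these 4 passed the adjusted test of limma in KO (adjusted p between 0.845 and 0.877), and all 4 rose in WT. Lrat, which stores retinol as esters, averaged 9.58 ± 0.29 after styrene and 9.03 ± 0.46 in air, a difference of 0.56 (limma adjusted p = 0.617).

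Fabp1, a fatty acid carrier, read 6.59 at the lowest, 7.02 at the median and 7.78 at the highest in KO after styrene, against 6.78, 6.90, 6.56, 6.82 and 6.53 in air. In 12 of 15 exposed arrays it lay above the air range. Its KO difference was 0.40 ± 0.12 (SE, limma adjusted p = 0.720), while it fell by 1.25 ± 0.17 in WT.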
